A study of Mus musculus with 4 samples.

Results

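The cells described here are the tumor macrophages that the submitters annotated as M2 in a mouse hind limb sarcoma, in hosts given vehicle or digoxin. Members are the cells of the non-malignant table whose type is Macrophage and whose sub-cluster is exactly M2. They number 4786 of 10363 macrophages, of 12648 non-malignant cells and of 31611 cells in the whole series. The other macrophages are 4280 cells annotated M1 and 1297 annotated Highly proliferative M2.

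There were 2 mice in each group, and replicates are mice. Vehicle mice received PBS by intraperitoneal injection. Digoxin mice received 2 mg/kg of the drug, dissolved in DMSO and diluted in PBS, every 24 h, and all tumors were collected following dose 4. The labels describe an allograft with the background strain 129/SvJae and conditional Trp53 alleles (Trp53flox/flox), shared by all 4 samples, and give no age. They name no Cre driver and do not say which alleles the host cells carry. Trp53 had a mean CPM (counts per 1000000 UMIs of a cell, averaged over cells) of 55.0 to 66.0 in the M2 cells of the 4 mice and of 6.56 to 7.71 in the malignant cells. Tumors were dissociated for 45 min at 37 °C and single cells were tagged by droplet capture of RNA 3′ ends with unique molecular identifiers (UMIs), each of which stands for 1 captured RNA molecule. The labels' protocol mentions plating of the dissociated cells as well as their loading for capture, and does not say whether the sequenced cells had been cultured.

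Macrophages take up debris, present antigen on MHC class II and secrete chemokines, growth factors and proteases. M1 and M2 are names for classically and alternatively activated states defined in culture, and macrophages in tissue often carry parts of both programs. In many tissues, macrophages with Lyve1, Cd163, Folr2 and Mrc1 lie near vessels and carry little MHC class II, while others carry much MHC class II. Digoxin is a cardiac glycoside, which inhibits the sodium pump.

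Vehicle mice 1 and 2 contributed 948 and 1511 M2 cells, and digoxin mice 1 and 2 contributed 1136 and 1191. The M2 cells carried 16100632 to 25864937 UMIs per mouse, with a median per cell of 16330 to 17650 UMIs and 3902 to 4109 genes. Of the M2 cells, 8 carry a barcode that an M2 cell of another library also holds. Barcodes they share with other cell types were not counted. Over all 31611 cells, 226 carry a barcode that another library also holds. Vehicle mouse 2 stood apart. Its M2 cells had a mean CPM of 0.261 for Xist, the RNA that coats an inactive X, against 607 to 784 in the other 3 mice. The Y-linked Ddx3y was at 93.9 against 1.81 to 2.86 CPM, and Eif2s3y, also Y-linked, at 50.1 against 0.527 to 1.29 CPM. The labels give no sex. This pattern was found in vehicle mouse 2 and in neither digoxin mouse, so the groups are not balanced for it. Of 5721 genes with a mean CPM of at least 20, vehicle mouse 2 lay more than 0.5 (log2) beyond the next mouse in 168, digoxin mouse 2 in 71, vehicle mouse 1 in 11 and digoxin mouse 1 in 5.

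The defining markers were present in M2 cells of every mouse. C1qa, a chain of complement C1q, had a mean CPM of 4743 and 5858 in vehicle mice 1 and 2 and of 5320 and 5659 in digoxin mice 1 and 2. Csf1r, the receptor for CSF1, ranged from 659 to 902 CPM, Adgre1, which encodes the F4/80 antigen, from 377 to 475, and Mrc1, the mannose receptor, from 1722 to 2464. A C1qa UMI was found in 98.9% to 99.8% of M2 cells at full depth and in 98.5% to 99.5% once each cell was thinned to 5000 UMIs (4 to 12 cells per mouse were too shallow). T cells, which should lack C1qa, carried one in 18.7% to 33.6% of cells at full depth (median 7244 to 8232 UMIs) and in 13.5% to 28.0% after thinning. Summed levels of other cell types' markers in M2 cells differed by list. The 7 T cell markers summed to 2.52 to 7.08 CPM and the 6 endothelial markers to 8.17 to 9.68 CPM per mouse. The 10 genes of the malignant cells, led by Col3a1 and Bgn, summed to 244 to 358 CPM. Among the lists with higher sums were those of plasmacytoid dendritic cells (117 to 181 CPM, mainly Bst2), osteoclasts (52.3 to 102 CPM, led by Acp5), B cells (52.4 to 89.1 CPM, led by Ighm) and fibroblasts or pericytes (53.5 to 78.5 CPM, led by Dcn).

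The next values describe the annotation and carry no test, since the clusters were made from these genes. In each mouse the M2 cells had 1.62 to 2.10 times the Csf1r level of M1 cells, 2.45 to 2.86 times the Adgre1 level, 4.24 to 4.95 times the Mrc1 level and 2.13 to 3.28 times the C1qa level. The genes highest against M1 were Lyve1, a hyaluronan receptor (11.3 to 14.4 times), Fcrls (7.97 to 11.5 times), Rcn3 (7.67 to 11.0 times), Gpr34 (6.41 to 12.7 times), Gas6, a ligand of the Mertk and Axl receptors (6.51 to 9.31 times), Npl, Cbr2 and Stard8. Lyve1 was at 534, 326, 400 and 529 CPM in M2 cells of vehicle mice 1 and 2 and digoxin mice 1 and 2, and at 26.0 to 47.1 CPM in M1 cells. The genes lowest against M1 included those of inflammatory monocytes. Ly6c2 was 44.1 to 295 times higher in M1 cells and Plac8 20.3 to 70.7 times. The others were Chil3, Slpi, Hp, Napsa, the interferon-stimulated Rsad2 and the decoy receptor Il1r2. Chil3 (13.6 to 117 times higher in M1 cells) is an alternative activation gene, so it runs against the M2 name. Arg1 and Tgm2, also of that list, were higher in M1 cells of every mouse (396 to 1818 against 211 to 649 CPM for Arg1). Il4ra of the list was higher in M2 cells of every mouse, and Clec10a differed in direction between mice.

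Against Highly proliferative M2 cells, the M2 cells carried 3.84 to 4.86 times the level of Apoe, an apolipoprotein, 2.93 to 5.33 times that of the chemokine Ccl8 and 3.28 to 3.69 times that of the selenium carrier Selenop. Hal, Gas6, C4b, Igf1 and Cd163 completed the 8 highest ratios, ranked by their mean over mice. The Cd163 ratio ranged from 1.45 to 6.68 times and was lowest in digoxin mouse 2 (36.5 against 25.3 CPM). All of the 8 lowest were cell cycle or histone genes. The replication-linked histone Hist1h1b was 31.5 to 70.0 times higher in the Highly proliferative M2 cells, the centromere protein gene Cenpf 25.5 to 43.2 times and Ube2c, which serves the exit from mitosis, 16.2 to 26.9 times. Hist1h2ap, Hist1h2ae, Nusap1, Aspm and Kif11 were the others, and histone genes are close copies whose reads can be split between them. Mki67, a marker of cycling cells, was at 48.0 to 68.9 CPM in the M2 cells.

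**Figure D1:**
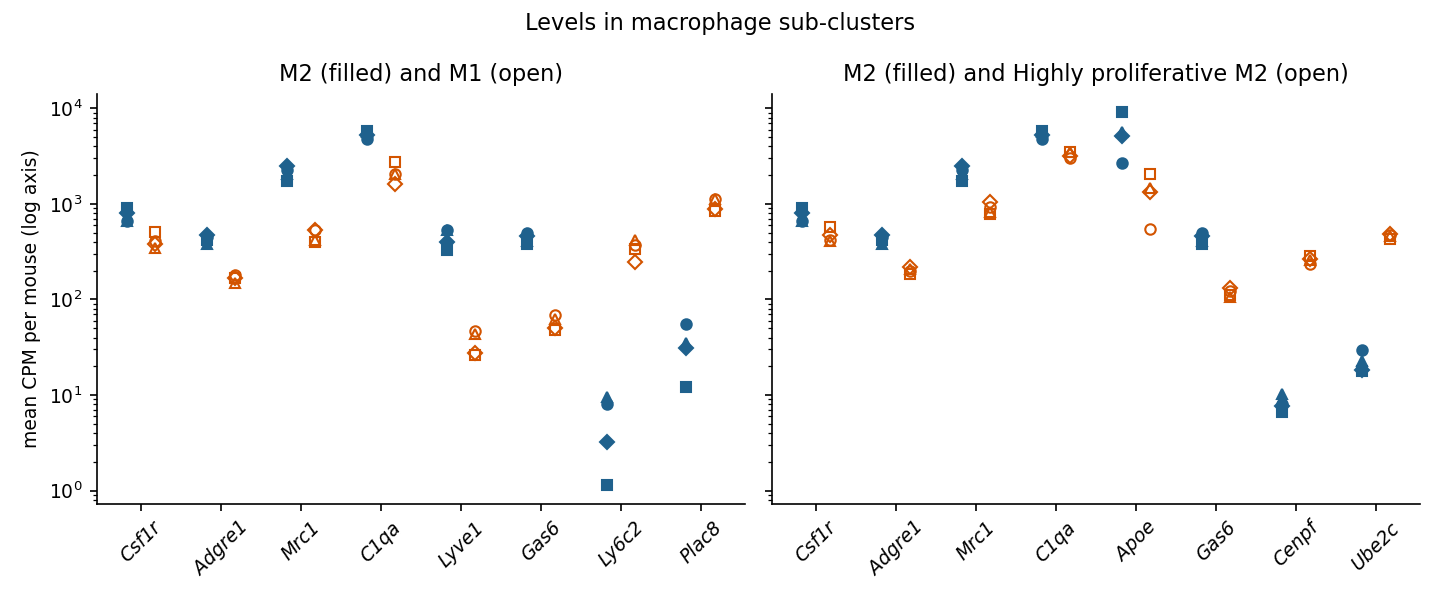
Mean CPM per mouse on a log axis for the 4 markers and selected genes in M2 cells (filled blue) and in M1 or Highly proliferative M2 cells (open orange). Circles, squares, diamonds and triangles are vehicle mouse 1, vehicle mouse 2, digoxin mouse 1 and digoxin mouse 2, and the filled and open symbols of each gene lie apart in all 4 mice, as for Lyve1 at 326 to 534 against 26.0 to 47.1 CPM.

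The M2 cells were not uniform. At 5000 UMIs per cell, a Lyve1 UMI was found in 45.5% and 40.7% of M2 cells in vehicle mice 1 and 2 and in 41.9% and 48.1% in digoxin mice 1 and 2, against 0.602% to 2.15% of T cells. At full depth the shares were 52.4%, 50.2%, 50.4% and 57.5%. The groups overlapped in both forms of the share. The cut at 1 UMI marks a range and not a cell type, and 80 of 426, 191 of 613, 114 of 474 and 138 of 569 cells with Lyve1 held exactly 1 Lyve1 UMI.

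Cells with Lyve1 carried fewer MHC class II UMIs. The sum over H2-Aa, H2-Ab1, H2-Eb1 and Cd74 ranged over the mice from 13 to 26.6 UMIs per cell with Lyve1 and from 67.3 to 86.9 UMIs per cell without it, a ratio of 0.193 to 0.306. The cytokine Il1b (ratio 0.349 to 0.449) and the monocyte chemokine receptor Ccr2 (0.406 to 0.563) were also lower in cells with Lyve1 in all 4 mice. Higher there were the scavenger receptor Cd163 (2.51 to 5.33 times), the carbonyl reductase Cbr2 (2.55 to 3.11 times), Ccl8 (1.97 to 3.19 times), the transglutaminase subunit F13a1 (2.03 to 2.98 times), Gas6 (2.14 to 2.87 times), the folate receptor Folr2 (1.97 to 2.05 times) and Mrc1 (1.83 to 1.98 times). The 3 C1q chains differed little, at 1.07 to 1.16 times. These ratios are descriptions over cells of the same libraries, and the genes shown were chosen with their values known.

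**Figure D2:**
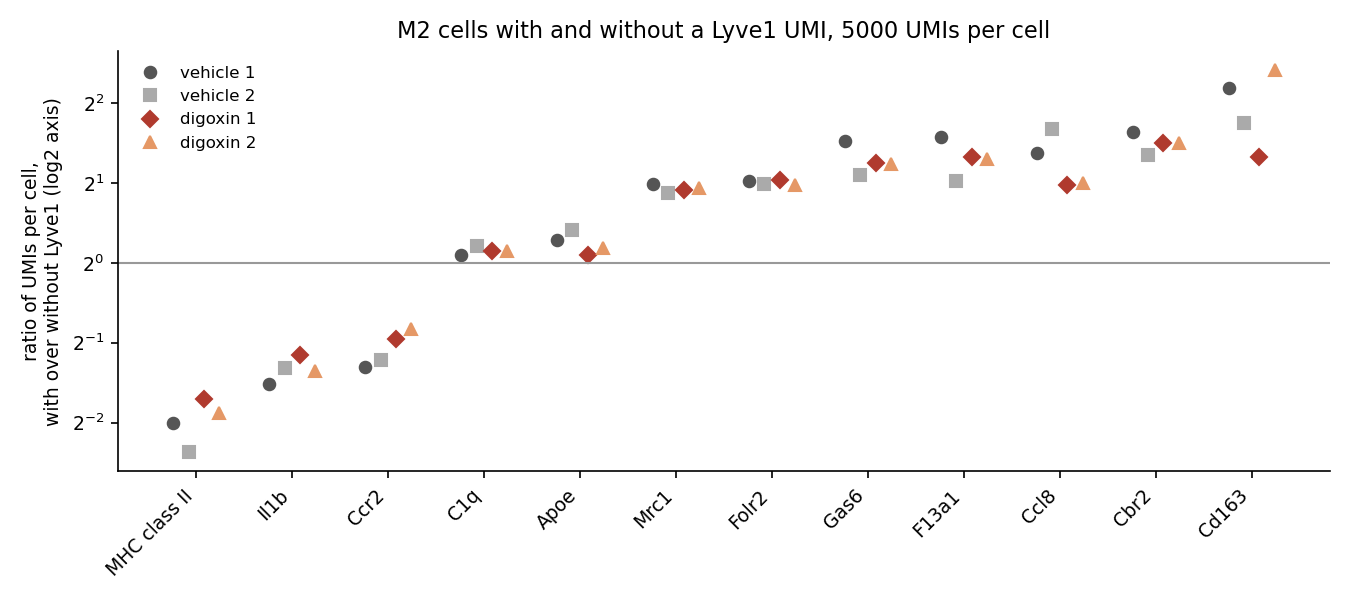
Ratio of UMIs per cell in M2 cells with a Lyve1 UMI to those without one, each cell thinned to 5000 UMIs, on a log2 axis with 1 symbol per mouse. MHC class II lies at 0.193 to 0.306 and Cd163 at 2.51 to 5.33, while C1q stays between 1.07 and 1.16.

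To ask whether digoxin went with a different number of M2 cells, their share was compared over mice. M2 cells made up 39.2% and 61.5% of macrophages in vehicle mice 1 and 2 and 41.3% and 43.5% in digoxin mice 1 and 2. Both digoxin mice thus lay between the vehicle mice, and the means were 50.4% ± 15.8 (SD, n = 2) and 42.4% ± 1.49 (SD, n = 2), with a two-sided exact permutation p of 1. Of all non-malignant cells, M2 cells were 31.3%, 50.1%, 34.0% and 36.6%, again with exact permutation p = 1. Digoxin minus vehicle was -7.97 and -5.43 percentage points for the 2 shares, and 3.19 and 4.01 without vehicle mouse 2, so the direction turned. With 2 mice per group this test cannot give a p below 0.33.

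The mitochondrial share of UMIs differed between the groups. Its median over M2 cells was 6.66% and 7.46% in vehicle mice 1 and 2 and 5.64% and 5.22% in digoxin mice 1 and 2. Cells above 10% were 110 of 948 (11.6%) and 257 of 1511 (17.0%) with vehicle and 41 of 1136 (3.61%) and 36 of 1191 (3.02%) with digoxin. The groups did not overlap (exact permutation p = 0.33, the smallest possible). M1 cells of the same tumors showed the same order at a lower level, 1.92% and 2.81% against 0.918% and 0.772%. Several counts of list members below are also given without such cells.

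**Figure D3:**
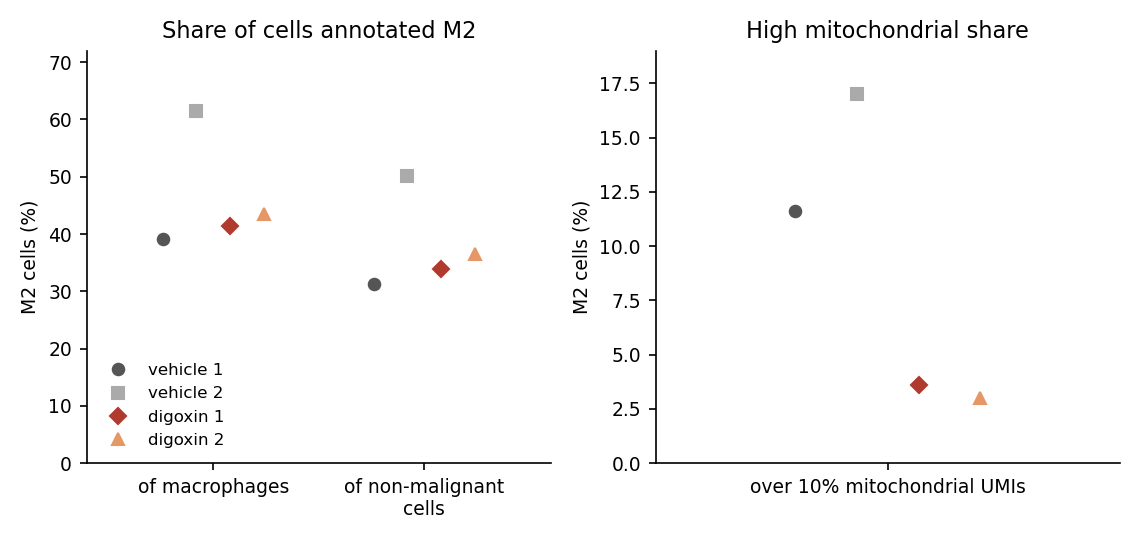
Left, M2 cells as a percent of macrophages and of non-malignant cells, and right, M2 cells with over 10% mitochondrial UMIs as a percent of M2 cells, 1 symbol per mouse. Vehicle mouse 2 is highest in both shares on the left, at 61.5% and 50.1%, and both digoxin mice are lowest on the right, at 3.61% and 3.02%.

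Gene levels in M2 cells were then compared between digoxin and vehicle. No gene passed: of 12545 tested, limma's adjusted p was under 0.05 in 0 (0%). Before adjustment 286 genes (2.28%) were under 0.05, 150 higher and 136 lower with digoxin. edgeR on the recovered UMIs also called 0 (392 before adjustment). DESeq2 called 9 (0.0717%). Vcam1, S100a9, Fkbp5, Jdp2 and Crem were higher and Cd163, Vsig4, Fam167b and Rgs7bp lower. Leaving out 1 mouse leaves 1 mouse in its group, so for single genes only log2 differences are given from such fits. Their counts of genes called are left to the last section. Without vehicle mouse 1, the only vehicle mouse left is vehicle mouse 2, in which Xist was near 0. Both digoxin mice lay above both vehicle mice in 1878 genes (15.0%) and below them in 1462 (11.7%). All log2 differences below are digoxin minus vehicle on the log2(mean CPM + 1) scale, which understates differences of low genes, and where no adjusted p is given limma's was 0.9997. For the 9 genes of the DESeq2 call, the highest adjusted p over 17 alternatives was 0.99993 for S100a9 and 0.99999 for each of the other 8.

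Among resident-like and scavenger receptor genes, 2 of 19 tested members were lower in both digoxin mice and 2 higher, beside 11.7% and 15.0% of all genes, and the median log2 difference was 0.01 against 0.02 over all genes. With TMM scaling, with CPM of summed UMIs or without cells above 10% mitochondrial UMIs 3 were higher. Cd163, the receptor for hemoglobin bound to haptoglobin, had a mean CPM of 95.7 and 87.6 in vehicle mice 1 and 2 and of 54.0 and 36.5 in digoxin mice 1 and 2. Both digoxin mice were below both vehicle mice. The log2 difference of -1.03 (SE 0.20) had an adjusted p of 0.9997 by limma and 0.00134 by DESeq2. It was -1.09 without vehicle mouse 2 and -0.75 without digoxin mouse 2. At 5000 UMIs per cell, 16.6% and 15.5% of M2 cells with vehicle and 10.4% and 7.19% with digoxin held a Cd163 UMI (25.5% and 29.0% against 20% and 15.3% at full depth). In T cells the share at full depth was 0.546% to 0.909%.

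The lower Cd163 level was seen on both sides of the Lyve1 cut. Cells with Lyve1 held 0.854 and 0.729 Cd163 UMIs with vehicle and 0.411 and 0.304 with digoxin, and cells without Lyve1 held 0.188 and 0.217 against 0.164 and 0.0571. The groups did not overlap in either set, at levels well below 1 UMI per cell.

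Vsig4, a complement receptor of resident macrophages, was at 25.5 and 40.5 CPM with vehicle and 12.8 and 16.4 CPM with digoxin. The groups did not overlap. The log2 difference of -1.10 (SE 0.24) had an adjusted p of 0.9997 by limma and 0.0246 by DESeq2, and it was -0.78 without vehicle mouse 2. The level rested on few cells. A Vsig4 UMI was present in 3.16% and 5.23% of M2 cells with vehicle and in 2.11% and 2.52% with digoxin at full depth (2.67%, 4.45%, 1.68% and 2.12% at 5000 UMIs per cell), and in 0 of 579 T cells, which allows a share of up to 0.518%. Most of its UMIs fell in cells with Lyve1, at 0.246, 0.403, 0.0823 and 0.144 UMIs per cell against 0.00980, 0.0503, 0.0334 and 0.0131 without.

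Higher in both digoxin mice were Timd4, a phosphatidylserine receptor (6.65 and 3.53 CPM with vehicle, 8.72 and 14.5 CPM with digoxin), and the chemokine Pf4 (801 and 1004 against 1130 and 1318 CPM). Their log2 differences were 1.06 (SE 0.31, or 0.68 without vehicle mouse 2) and 0.44 (SE 0.16, or 0.28 without vehicle mouse 1). At 5000 UMIs per cell, Timd4 was found in 2.67% and 0.863% of M2 cells with vehicle and 3.89% and 6.60% with digoxin (8.33%, 5.03%, 9.24% and 17.1% at full depth), and in 0.893% to 4.51% of T cells, so that in vehicle mouse 2 and digoxin mouse 1 the M2 share was not above this background. Lyve1, Folr2 and Mrc1 themselves overlapped between the groups. Folr2, named after its values were seen, was at 418 and 500 CPM with vehicle and 435 and 511 CPM with digoxin.

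The other genes with lower levels and a DESeq2 call were Fam167b, at 50.4 and 38.1 CPM with vehicle and 24.2 and 23.3 CPM with digoxin, and Rgs7bp, which encodes a partner of the R7 regulators of G protein signaling, at 11.7 and 9.16 against 4.63 and 3.27 CPM. Their log2 differences were -0.86 (SE 0.18, DESeq2 adjusted p 0.00567) and -1.21 (SE 0.23, DESeq2 adjusted p 0.0225).

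Vcam1, an adhesion molecule that binds integrins of leukocytes, had a mean CPM of 50.9 and 28.0 with vehicle and of 105 and 106 with digoxin. The digoxin mice were close to each other and above both vehicle mice. The log2 difference of 1.46 (SE 0.25) had an adjusted p of 0.9997 by limma and 2.60e-06 by DESeq2, and it was 1.04 without vehicle mouse 2. A Vcam1 UMI was found in 15.0% and 9.02% of M2 cells with vehicle and in 24.7% and 24.7% with digoxin at 5000 UMIs per cell (30.2%, 20.1%, 39.5% and 46.0% at full depth), and in 1.08% to 4.46% of T cells.

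Fkbp5, a co-chaperone of steroid receptors that glucocorticoids induce, was at 15.1 and 19.4 CPM with vehicle and 30.7 and 43.4 CPM with digoxin (log2 difference 1.05, SE 0.22, DESeq2 adjusted p 0.0356). Jdp2, a repressor of the AP-1 family, was at 80.0 and 75.1 against 121 and 170 CPM (0.88, SE 0.18, DESeq2 adjusted p 0.00959). Crem, a regulator of cyclic AMP responses, was at 73.8 and 60.2 against 109 and 128 CPM (0.81, SE 0.16, DESeq2 adjusted p 0.0204). In all 3 genes both digoxin mice were above both vehicle mice, and none passed in limma (adjusted p 0.9997 each).

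S100a9, a calcium-binding protein abundant in neutrophils and monocytes, had the smallest limma p. Its mean CPM was 1.19 and 1.31 with vehicle and 11.1 and 6.45 with digoxin, from 17, 39, 197 and 119 UMIs (log2 difference 2.08, SE 0.27, adjusted p 0.532 by limma and 5.35e-05 by DESeq2). A UMI was found in 0.534% and 0.796% of M2 cells with vehicle and 4.51% and 1.69% with digoxin at 5000 UMIs per cell (1.48%, 2.45%, 12.7% and 4.28% at full depth). In T cells the shares at 5000 UMIs were 1.20% and 2.15% with vehicle and 6.02% and 6.25% with digoxin (2.19%, 1.82%, 9.03% and 8.40% at their lower full depth), so at matched depth the M2 shares were not above this background. The 7 neutrophil markers, S100a9 among them, summed to 51.8, 42.0, 65.7 and 50.8 CPM in M2 cells, and the part of RNA from neutrophils in this difference was not tested. Of the other neutrophil genes, S100a8 was at 6.77 and 9.13 CPM with vehicle and 11.4 and 15.1 CPM with digoxin, and Retnlg at 0.216 and 0.0626 against 1.41 and 0.546 CPM. Csf3r, the most abundant of the list, overlapped at 42.9 and 31.0 against 41.0 and 27.8 CPM, as did Cxcr2 at 0.578 and 0.0759 against 0.408 and 0.497 CPM. Mmp8 was at 0.148 and 0.383 against 0.403 and 0.492 CPM, and Ly6g was at 0 to 0.0422 CPM. The tables held 11 and 5 neutrophils with vehicle and 34 and 23 with digoxin.

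**Figure D4:**
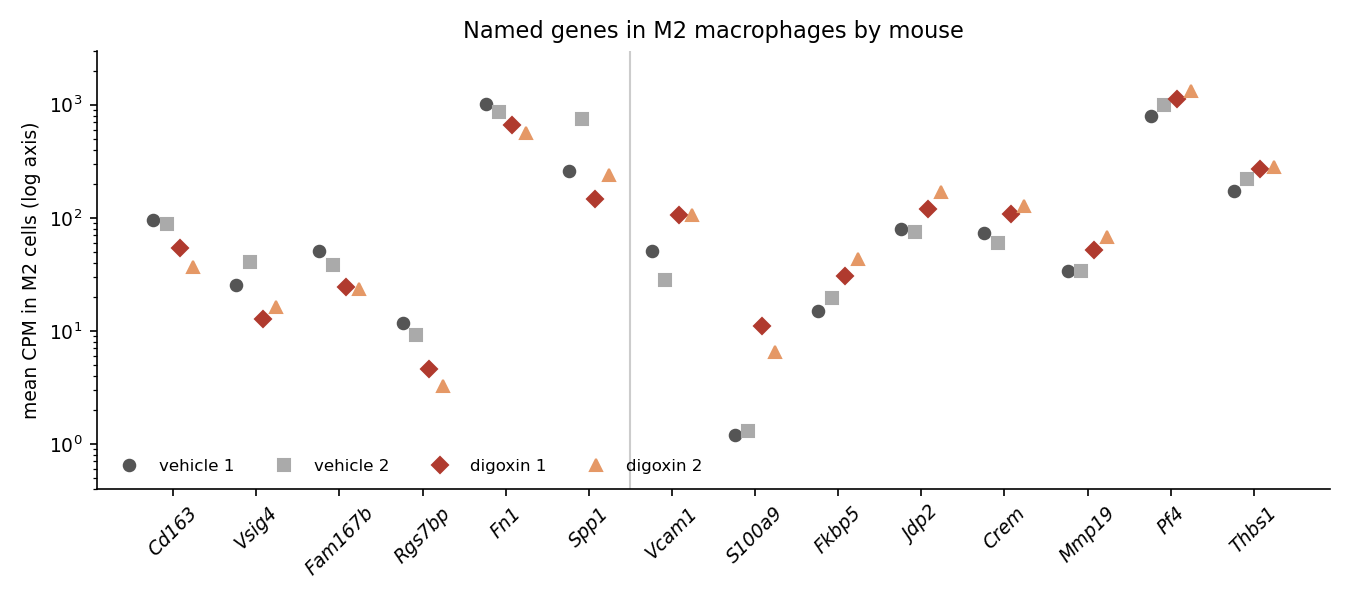
Mean CPM in M2 cells on a log axis, 1 symbol per mouse, for genes lower (left of the line) and higher (right) in both digoxin mice. Cd163 lies at 95.7 and 87.6 with vehicle and 54.0 and 36.5 with digoxin, Vcam1 at 50.9 and 28.0 against 105 and 106.

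For 4 of the 9 genes that DESeq2 called, each with 1 start site in RefSeq, the 250 bases before the start (GRCm38.p6, read 5′ to 3′ on the gene's own strand) are shown, so that genes that were lower (Cd163, Vsig4, Fam167b) and one that was higher (Fkbp5) can be set side by side. They lie at chr6:124304401-124304650 (plus strand), chrX:96293439-96293688 (minus), chr4:129578581-129578830 (minus) and chr17:28486150-28486399 (minus). The bases that follow the RefSeq start were found unbroken in a GENCODE transcript of the gene for Vsig4 and Fkbp5 and in none for Cd163 and Fam167b, and GENCODE also lists Fkbp5 transcripts that begin further upstream.
Cd163: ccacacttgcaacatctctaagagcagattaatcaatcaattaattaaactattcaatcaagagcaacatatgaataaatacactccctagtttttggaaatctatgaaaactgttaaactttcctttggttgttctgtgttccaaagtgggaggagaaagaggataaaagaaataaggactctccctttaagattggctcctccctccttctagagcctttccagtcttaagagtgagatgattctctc
Vsig4: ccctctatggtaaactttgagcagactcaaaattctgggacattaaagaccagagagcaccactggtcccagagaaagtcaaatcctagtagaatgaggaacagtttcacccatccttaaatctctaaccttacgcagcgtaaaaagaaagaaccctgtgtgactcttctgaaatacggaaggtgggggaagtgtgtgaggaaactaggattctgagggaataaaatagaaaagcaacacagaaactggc
Fam167b: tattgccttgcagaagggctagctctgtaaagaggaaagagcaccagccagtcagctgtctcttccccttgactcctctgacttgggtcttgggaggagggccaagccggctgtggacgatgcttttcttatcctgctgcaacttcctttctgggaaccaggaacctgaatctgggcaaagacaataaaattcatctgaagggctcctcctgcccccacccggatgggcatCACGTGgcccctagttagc
Fkbp5: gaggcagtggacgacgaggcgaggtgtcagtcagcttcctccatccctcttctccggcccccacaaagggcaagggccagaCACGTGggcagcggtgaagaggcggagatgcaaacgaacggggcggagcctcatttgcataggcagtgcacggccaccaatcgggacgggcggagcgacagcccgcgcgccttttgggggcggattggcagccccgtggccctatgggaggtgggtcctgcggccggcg
Capitals mark the motifs searched on both strands. These were AP-1 (TGANTCA), the cyclic AMP element (TGACGTCA), the core of the hypoxia element (ACGTG), a PU.1 motif (GAGGAAGT) and the palindromic glucocorticoid element. The hypoxia core was found in Fam167b and Fkbp5, each time as CACGTG, where it lies on both strands and overlaps the E-box, and the other motifs were not in these windows. Over all 32851 upstream windows of this length, 16.6% held the hypoxia core, 6.75% AP-1, 1.55% the cyclic AMP element, 2.44% the PU.1 motif and 0.00913% the glucocorticoid element. A match is a description of the letters and not a site of binding.

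Lipid-handling genes showed 3 of 19 members lower and 1 higher in both digoxin mice, beside 11.7% and 15.0% of all genes, with a median log2 difference of -0.01. Spp1, the secreted phosphoprotein osteopontin, had a mean CPM of 260 and 745 with vehicle and of 146 and 241 with digoxin. Vehicle mouse 2 set most of this difference. The log2 difference was -1.22 (SE 0.43) and -0.47 without that mouse. The tetraspanin Cd9 (56.7 and 61.5 against 35.0 and 45.2 CPM) and the fatty acid binding protein Fabp5 (273 and 344 against 250 and 268 CPM, named after its values were seen) were lower, with log2 differences of -0.56 and -0.24, the latter -0.08 without vehicle mouse 2. Lpl, lipoprotein lipase, was higher (24.8 and 11.2 against 29.9 and 44.8 CPM), by 1.08 or by 0.54 without vehicle mouse 2. Apoe overlapped, at 2655, 9127, 5134 and 5655 CPM.

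Genes of activation states did not lie on one side. Of 16 alternative activation genes, the lectin Clec10a and the transglutaminase Tgm2 were higher in both digoxin mice and Irf4 (named after its values were seen) lower, with a median of 0.01 that was -0.29 without vehicle mouse 2. Over all genes 15.0% were higher and 11.7% lower. Clec10a was at 66.3 and 30.4 CPM with vehicle and 73.9 and 76.4 CPM with digoxin, a log2 difference of 0.73 that was 0.18 without vehicle mouse 2. Arg1, the arginase of alternatively activated cells, varied as much within as between the groups, at 649, 211, 399 and 260 CPM.

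Of 17 classical activation genes, Cd80, Fpr2 and Cd38 were higher in both digoxin mice and Socs3 and Il23a lower, beside 15.0% and 11.7% of all genes. Cd38 and Il23a are named after their values were seen. The T cell costimulator Cd80 was at 15.1 and 14.1 CPM with vehicle and 21.4 and 26.7 CPM with digoxin. Its log2 difference was 0.68 (SE 0.18, or 0.63 without vehicle mouse 2 and 0.52 without digoxin mouse 2). The formyl peptide receptor Fpr2 was at 28.8 and 21.9 against 31.7 and 38.3 CPM (0.46, or 0.27 without vehicle mouse 2). The median over this list was 0.19 and changed sign to -0.20 without vehicle mouse 2. Il1b overlapped at 338, 531, 471 and 469 CPM.

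MHC class II genes overlapped between the groups in all 9 tested members, beside 9205 of all 12545 genes, with a median log2 difference of -0.06. Without cells above 10% mitochondrial UMIs 1 member was lower and the median was -0.13. Cd74, the invariant chain, was at 5434 and 4546 CPM with vehicle and 6029 and 4659 CPM with digoxin. Of 20 complement and opsonin receptor genes none was higher in both digoxin mice, and 2 were lower, beside 15.0% and 11.7% of all genes. With TMM scaling 1 was higher and 3 lower, and with CPM of summed UMIs 1 was higher. Among the 2 was the inhibitory Fc receptor Fcgr2b (755 and 848 against 709 and 512 CPM, log2 difference -0.41, SE 0.18, or -0.17 without digoxin mouse 2). C1qa and C1qb overlapped.

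The chemokine list held 3 of 16 members lower and 2 higher in both digoxin mice, beside 11.7% and 15.0% of all genes, at a median of -0.09 that was -0.16 without vehicle mouse 2. Without cells above 10% mitochondrial UMIs the counts were 2 and 1. Ccl3 and Ccl4, inflammatory chemokines of the CC family, were at 127 and 214 and at 346 and 359 CPM with vehicle and at 105 and 101 and at 269 and 250 CPM with digoxin. The log2 difference was -0.67 (SE 0.23) for Ccl3, or -0.29 without vehicle mouse 2, and -0.44 (SE 0.13) for Ccl4, or -0.41 without it. Ccl2, which draws monocytes, was lower by less (1377 and 1162 against 1149 and 1094 CPM, -0.17, SE 0.14, or -0.05 and -0.30 without vehicle mouse 1 and 2). Cxcl2, which draws neutrophils, was at 3261 and 3154 against 3430 and 4479 CPM (0.29, SE 0.16, or 0.10 without digoxin mouse 2), and Cxcl3 at 13.8 and 9.89 against 13.8 and 14.6 CPM (0.26, or 0.03 without vehicle mouse 2).

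Of 15 monocyte genes tested, Fn1 was lower in both digoxin mice, beside 11.7% of all genes, and the other 14 overlapped. Without cells above 10% mitochondrial UMIs 3 members were lower, and with TMM scaling or CPM of summed UMIs 2 were. Fn1, fibronectin, had a mean CPM of 1008 and 857 with vehicle and of 655 and 564 with digoxin, a log2 difference of -0.61 (SE 0.15) with an adjusted p of 0.9997 by limma and 0.0616 by DESeq2. The difference was -0.73 without vehicle mouse 2 and -0.49 without vehicle mouse 1. At 5000 UMIs per cell, a Fn1 UMI was found in 73.4% and 71.4% of M2 cells with vehicle and in 52.5% and 52.9% with digoxin (86.1%, 86.6%, 70.8% and 75.2% at full depth). The T cell background was high, at 21.1% and 26.9% with vehicle and 30.1% and 39.3% with digoxin at 5000 UMIs per cell (34.4%, 32.7%, 36.8% and 45.8% at full depth).

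Matrix protease genes and their inhibitors had 6 of 18 tested members higher in both digoxin mice, beside 15.0% of all genes. None was lower, beside 11.7%, and the median was 0.02. With CPM of summed UMIs, or without cells above 10% mitochondrial UMIs, 4 were higher. Mmp19, a matrix metalloprotease, was at 33.9 and 34.0 CPM with vehicle and 51.4 and 68.0 CPM with digoxin (log2 difference 0.78, SE 0.18). Thbs1, thrombospondin 1, was at 172 and 220 against 272 and 282 CPM (0.51, SE 0.16, or 0.33 without vehicle mouse 1). Adam8 was at 60.9 and 32.9 against 64.6 and 81.1 CPM (0.68, or 0.25 without vehicle mouse 2). Among 20 secreted growth factors, Inhba and Tgfb1 were higher and 1, Pdgfb, was lower, beside 15.0% and 11.7% of all genes. With TMM scaling 1 was higher, and with CPM of summed UMIs 3 were higher. Pdgfb was at 40.8 and 32.4 against 29.7 and 26.5 CPM (-0.36, SE 0.18, or -0.20 without vehicle mouse 1).

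HIF target and glycolysis genes had 7 of 25 members lower in both digoxin mice and 1, the hexokinase Hk2, higher. Over all genes 11.7% were lower and 15.0% higher. Their median was -0.08, and -0.14 without vehicle mouse 2. Ankrd37 was at 6.77 and 9.99 CPM with vehicle and 2.82 and 3.79 CPM with digoxin (log2 difference -1.11, SE 0.24), and the mitophagy receptor Bnip3 at 35.9 and 38.4 against 29.5 and 22.2 CPM (-0.52, SE 0.18, or -0.32 without digoxin mouse 2). The 17 others overlapped, such as the glycolytic enzyme Gapdh at 1105, 1247, 1068 and 1145 CPM. With TMM scaling, which shifted the median of all genes from 0.02 to 0.01, 10 members were lower and 3 higher (1611 of all 12545 genes lower and 1876 higher). Without cells above 10% mitochondrial UMIs 9 were lower and 2 higher (1564 of all genes lower and 1680 higher).

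Immediate early genes, which also respond to tissue dissociation, had 5 of 18 members lower and none higher in both digoxin mice. Over all genes 11.7% were lower and 15.0% higher. Their median was -0.18. Jun was at 602 and 889 CPM with vehicle and 529 and 338 CPM with digoxin (log2 difference -0.79, SE 0.24, or -0.51 without vehicle mouse 2 and -0.47 without digoxin mouse 2), and Atf3 at 412 and 513 against 391 and 246 CPM (-0.57, SE 0.22, or -0.23 without digoxin mouse 2). Fos, Jund and Klf2 were the others, the last 2 named after their values were seen. Without cells above 10% mitochondrial UMIs, 4 members were lower and the median was -0.11, and with CPM of summed UMIs 7 were lower.

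S phase genes had 5 of 18 members higher, beside 15.0% of all genes, Mcm4, Mcm6, Mcm7, Tyms and Gins2, of which Mcm4, Mcm7 and Tyms are named after their values were seen. The median of 0.33 rested on vehicle mouse 2 and was -0.03 without it, beside -0.04 over all genes without that mouse. Without cells above 10% mitochondrial UMIs 2 members were higher. Mcm6, part of the replicative helicase, was at 73.0, 42.3, 74.0 and 74.6 CPM. G2 and mitosis genes overlapped in all 20 members, beside 9205 of all 12545 genes (without cells above 10% mitochondrial UMIs 2 were lower). Their median of 0.12 was -0.15 without vehicle mouse 2. Of 18 interferon-stimulated genes, Ifit1 alone was higher (5.67 and 5.85 against 7.79 and 7.97 CPM), beside 15.0% of all genes. With TMM scaling 3 were higher, as were 3 without cells above 10% mitochondrial UMIs. The interferon median of 0.25 was -0.06 without vehicle mouse 2.

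Stress response genes had 5 of 15 tested members higher in both digoxin mice, beside 15.0% of all genes. None was lower, beside 11.7%, and the median of 0.19 was 0.09 without vehicle mouse 2. Sdf2l1, of the endoplasmic reticulum, was at 141 and 133 CPM with vehicle and 160 and 201 CPM with digoxin (0.38, SE 0.15, or 0.22 without digoxin mouse 2), and Sesn2 at 10.7 and 6.36 against 13.6 and 13.3 CPM (0.64, or 0.31 without vehicle mouse 2). The chaperone Hspa5 was at 834 and 742 against 835 and 1103 CPM (0.29, or 0.09 without digoxin mouse 2). Dnajb9 and Phgdh, named after their values were seen, completed the 5, with 4 higher without cells above 10% mitochondrial UMIs and 2 higher with CPM of summed UMIs.

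Genes of the sodium pump beta subunits and ion transport had 6 of 14 members higher, beside 15.0% of all genes. None was lower, beside 11.7%, and the median of 0.12 was 0.08 without vehicle mouse 2. Without cells above 10% mitochondrial UMIs 5 were higher. The beta subunit Atp1b3 was at 248 and 194 CPM with vehicle and 250 and 268 CPM with digoxin (0.24, SE 0.16, or 0.06 without vehicle mouse 2). The calcium pump Atp2b1 was at 425 and 439 against 503 and 453 CPM (0.14, SE 0.13, or 0.07 without digoxin mouse 1), and Atp2b4 at 9.20 and 8.85 against 9.85 and 18.1 CPM (0.52, SE 0.27, or 0.11 without digoxin mouse 2). Heme, iron and antioxidant genes had 4 of 16 higher, beside 15.0% of all genes (3, and none lower, without cells above 10% mitochondrial UMIs), among them the iron transporter Slc11a1 (86.8 and 77.1 against 95.6 and 144 CPM) and the thioredoxin reductase Txnrd1 (62.7 and 48.2 against 64.1 and 85.0 CPM). Nqo1, under 1 CPM and named after its values were seen like the other 2 (Gclm and Slc7a11), was lower, beside 11.7% of all genes. In the lysosomal list, Ctsc alone of 17 was higher (1544 and 1425 against 1625 and 1755 CPM), beside 15.0% of all genes. None was lower, beside 11.7%. With CPM of summed UMIs 2 were higher and 1 lower.

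Further genes with wide differences lay outside the lists. Lower in both digoxin mice were the phosphatase Dusp6 (78.7 and 89.8 against 68.8 and 28.7 CPM, log2 difference -0.90, or -0.28 without digoxin mouse 2), the transcription factor Hhex (27.4 and 30.0 against 20.1 and 13 CPM, -0.79, or -0.49 without digoxin mouse 2), Rgs18 (28.4 and 39.6 against 23.0 and 17.3 CPM, -0.72) and Fcrls (241 and 515 against 241 and 162 CPM, -0.83). Fcrls was -0.29 without vehicle mouse 2. Higher were Gpd2, a mitochondrial glycerol phosphate dehydrogenase (24.7 and 17.1 against 31.5 and 40.6 CPM, 0.77), and Fgl2 (110 and 53.7 against 129 and 151 CPM, 0.85, or 0.34 without vehicle mouse 2). The unnamed model Gm12840 was also among them. Xist, at 607, 0.261, 780 and 784 CPM, was near 0 in vehicle mouse 2, and its log2 difference was 0.36 without that mouse.

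To see whether digoxin went with a different change in M2 cells than in M1 cells of the same tumors, the effect was compared within mice. Of 12795 genes limma called 0 (0%), and 746 (5.83%) were under 0.05 before adjustment. Fits without 1 mouse leave 1 mouse in a group, and their counts are left to the last section. The 3 smallest p belonged to Arg1, Fn1 and Nos2. Arg1 was at 982 and 396 CPM with vehicle and 1818 and 987 CPM with digoxin in M1 cells. Its log2 effect was -0.20 in M2 (0.61 without vehicle mouse 1, -1.01 without vehicle mouse 2 and 0.11 without digoxin mouse 2, so the direction turned) and 1.10 in M1, a difference of -1.30 (SE 0.13, limma adjusted p 0.0892). Fn1 was at 1627 and 1265 against 1946 and 1590 CPM in M1 cells, and the difference of effects was -0.91 (SE 0.10, limma adjusted p 0.0892). Nos2, the inducible nitric oxide synthase, was under 1 CPM in M2 cells of every mouse and at 7.54, 3.34, 23.8 and 18.8 CPM in M1 cells (difference -2.01, SE 0.25, limma adjusted p 0.166).

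Against Highly proliferative M2 cells, limma called 0 of 12630 (0%), and 621 (4.92%) were under 0.05 before adjustment. Counts from fits without 1 mouse are again left to the last section. Vsig4 had the smallest p. It was at 2.83, 5.71, 5.58 and 10.3 CPM in the Highly proliferative M2 cells, with a log2 effect of 0.77 there and -1.10 in M2, a difference of -1.87 (SE 0.21, limma adjusted p 0.0697). In those cells its UMIs lay in 3, 5, 4 and 5 cells per mouse (0.800%, 2.15%, 1.31% and 1.30%), shares that overlapped between the groups. The B cell chemokine Cxcl13 was at 34.3, 7.98, 25.0 and 125 CPM in M2 cells and at 22.0, 0.662, 82.3 and 268 CPM in Highly proliferative M2 cells (difference -2.91, SE 0.45, limma adjusted p 0.445). Rgs1, which dampens signaling of chemokine receptors, differed by -0.47 (SE 0.08, limma adjusted p 0.445).

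**Figure D5:**
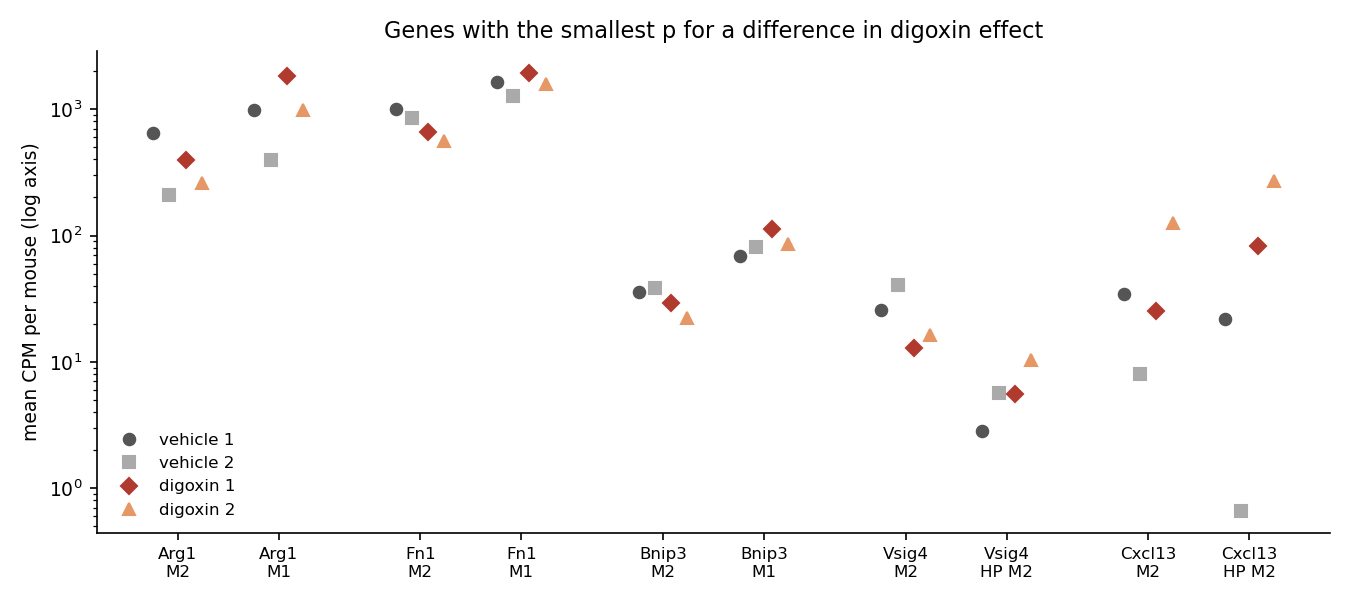
Mean CPM per mouse on a log axis in M2 cells and in M1 or Highly proliferative M2 (HP M2) cells, 1 symbol per mouse, for 5 genes among those with the smallest p for a difference in digoxin effect (Bnip3 was added after its values were seen). Arg1 in M1 cells is at 982 and 396 with vehicle and 1818 and 987 with digoxin, while in M2 cells the groups overlap at 211 to 649.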

How the data were processed

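The authors deposited natural log values, ln(1 + UMIs per 10000 UMIs of the cell), with per-cell tables of UMI counts, gene counts and annotation. Per the submitters' processing notes, Cell Ranger 3.0.2, Seurat 3.0.2 and the mm10 build were used. The gene annotation, the cell filter and the rule that set malignant apart from non-malignant cells are not given in the sources used here. The deposited counts per cell allowed the values to be turned back, and 100% of values above 0 were whole within 0.01. No column belonged to no sample. A further allele of the labelled genotype is not reported here.

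Here each cell was scaled to CPM and averaged per mouse. limma 3.58.1 with a variance trend was fitted to log2(mean CPM + 1) over the 4 mice for genes kept by edgeR's filterByExpr, with Benjamini-Hochberg adjustment at 0.05. The difference of effects was fitted to the within-mouse difference of log2 values. limma was chosen because the deposited values are normalized. edgeR 4.0.16, DESeq2 1.42.0 and limma-voom on recovered summed UMIs were alternatives, as were other pseudocounts, filters, scalings, a replicate block and leaving out each mouse. Scrublet (scanpy 1.11.5, expected share 0.06) marked 0 to 4 M2 cells per mouse and 0.398% to 0.989% of non-malignant cells, and they were kept. Fits were also run on simulated counts with the same spread for all genes and no outlying mouse. Such a run does not measure their power in these data.

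Named genes are the 4 markers, the 5 smallest p, the 10 highest and 10 lowest log2 differences among genes of mean CPM 20 or more whose groups do not overlap, the 2 most abundant members and the 2 highest and 2 lowest such differences (mean CPM of at least 5) of each of 19 lists, the 8 highest and 8 lowest ratios against M1 and Highly proliferative M2 (mean CPM of at least 50), the 3 smallest p of each difference of effects, and Xist, Ddx3y and Trp53. Not all are printed. The members, lists and tests were chosen with earlier results of these data known. Upstream sequences are from RefSeq (GRCm38.p6).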

Additional observations from a re-analysis of the deposited data

How the results depend on the processing

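The count of genes called in M2 was 0 under the alternatives tried, except that DESeq2 called 9 and leaving out 1 mouse gave 0 to 50. Deviations from the group means had a correlation of 0.00676 between mice with the same replicate number. With 2 mice per group both pairs give the same value, so it cannot show whether the number marks a shared litter or day. With the replicate block 0 genes were called in M2. Between M2 and M1, leaving out 1 mouse gave 0 to 240 genes, the replicate block 136 and removal of cells over 10% mitochondrial UMIs 1 (Arg1). Between M2 and Highly proliferative M2, leaving out 1 mouse gave 7 to 112, the replicate block 9, a pseudocount of 5 gave 2 (Vsig4 and Cxcl13), and TMM factors and removal of cells with at least 2 markers of another type gave 1 each (Vsig4). In each comparison the highest count without 1 mouse came from leaving out vehicle mouse 1. The only vehicle mouse then left was vehicle mouse 2, in which Xist was near 0. A fit with 1 mouse in a group has no spread within that group, so no conclusion is drawn from the counts of such fits. The cause of the differences in count was not tested. Without vehicle replicate 2 the M2 shares turned from -7.97 to 3.19 points of macrophages and from -5.43 to 4.01 points of non-malignant cells. The ranges over mice left out were -19.1 to 3.19 and -14.9 to 4.01. Among medians of at least 0.1 in size, those that changed sign without that mouse, an alternative chosen after seeing the data, belonged to classical activation (-0.20), interferon-stimulated (-0.0640), S phase (-0.0306) and G2 and mitosis genes (-0.15). A further 6 medians, all under 0.1 in size, also changed sign without it. So did the median over all genes tested, from 0.02 to -0.04, so a change of sign is not particular to these lists. Of 93 named genes, 13 changed sign without that mouse, Mrc1, Csf1r and Mki67 among them, and all 13 overlapped between the groups. Where groups do not overlap, leaving out 1 mouse cannot turn the sign.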
